A study of Homo sapiens with 29 samples.

Results

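The course of the transcription wave was described in THOC5-depleted HEK293 cells at 10, 20, 30 and 40 min after release from DRB. The genes were those whose summed coverage in the window around the gene start reached 100 rpm, the minimum of the study methods, and 2643 of the 4592 listed genes did so. HEK293 is a human embryonic kidney cell line. The study compared cells carrying a hairpin against THOC5 with control cells by DRB/TTchem-seq, Nanopore sequencing and ChIP-seq, and the libraries described here are the 4 of the shTHOC5 release series. All 4 came from cells transduced for 4 days with the shTHOC5 lentivirus, held in 100 μM DRB for 3.5 h, washed, and labelled with 1 mM 4SU. The control table is not used here.

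Each release time had 1 library, so there was no replicate error and no test between times was possible. Shares have 95% Wilson intervals over genes, and these cover the spread between genes of the same libraries, not the spread between cultures. The table does not list THOC5, so it gives no check of the depletion. The members held 93.1% of the listed coverage, with a median of 247 rpm, and 1 gene alone held 8.00% of the listed coverage. In bulk RNA, fewer cells using a gene and less RNA per cell give the same coverage and cannot be told apart. The 4592 genes were 60 to 299 kb wide, and the members had a median width of 99.0 kb.

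DRB inhibits CDK9, the kinase of P-TEFb that lets Pol II leave the promoter-proximal pause, and Pol II that is already elongating runs off the genes during the block. After washout the paused Pol II enters the gene bodies together, and short 4SU labelling marks the RNA made as this front passes. THOC5 is a subunit of the THO complex, which associates with elongating Pol II and joins the TREX complex in packaging mRNA for export.

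The wave peak is the position that the authors' pipeline called for a gene at a release time, in a window that reaches 2 kb upstream and 120 kb downstream of the gene start. Distances are given in kb from that start, negative values lying upstream. The gene start is the 5′ end of the annotated gene, which need not be the start of the transcript in use. BICD1, just above the minimum with 100.1 rpm, had wave peaks at -2, 3.01, 5.10 and 5.78 kb in order of time. Just below it, with 99.9 rpm each, ADAM22 had them at -2, 2.35, 4.67 and 6.67 kb and ZNF710 at -2, 98.5, 97.6 and 89.4 kb, so near and far courses stood side by side there.

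Over the 2643 genes the wave peaks moved out of the window start and into the first 20 kb of the genes. The median lay at -2 kb, the first position of the window, 10 min after release. At the 3 later times it lay 4.16, 6.61 and 9.42 kb inside the gene. At 10 min 1458 genes (55.2%) had the wave peak at the first position, and this share was 28.9%, 19.4% and 11.9% at the later times (95% interval of the last 10.7% to 13.2%). The 1458 genes are of the kind that the 10 min filter of the study left out. The share with a wave peak 0 to 20 kb into the gene was 15.5% at 10 min and 41.8%, 50.0% and 50.8% at the later times. Within this stretch the 0 to 5 kb class was the larger at 20 min, with 26.5% of genes against 12.4% at 5 to 10 kb. At 40 min the 5 to 10 kb class held 30.9% of genes and the 0 to 5 kb class 9.99%. A separate population lay far from the start at every time. Wave peaks 40 kb or more downstream were called in 23.8%, 24.1%, 26.0% and 31.0% of genes in order of time, and because of them the mean position was 22.2 kb at the first and 33.5 kb at the last time. In the genes never called at the first position the medians were 46.8, 39.0, 40.4 and 50.6 kb, far from the start at all 4 times.

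**Figure D1:**
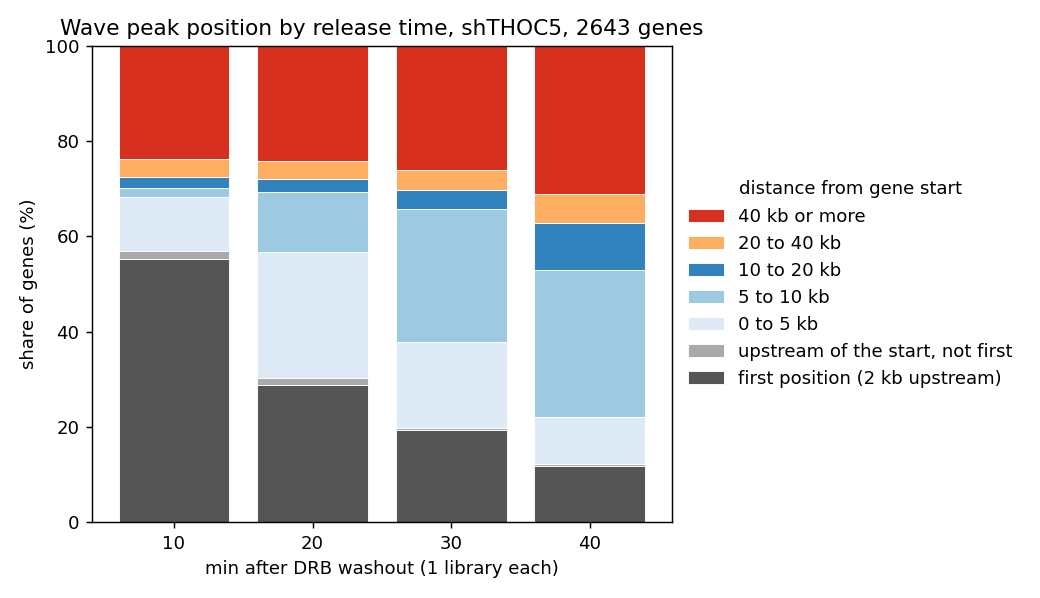
Share of the 2643 genes (vertical axis, %) by the distance of the wave peak from the gene start, in stacked bars for each release time in min. The dark grey class at the first window position is 55.2% at 10 min and 11.9% at 40 min, the blue classes within 20 kb are 15.5% and 50.8%, and the red class at 40 kb or more is 23.8% at 10 min and 31.0% at 40 min.

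Most of the departures from the first position were short. Of the 1458 genes there at 10 min, 719 had left it at 20 min, and 620 of these 719 were then 0 to 20 kb into the gene. Another 60 appeared 40 kb or more downstream within those 10 min. Of the 739 genes still at the first position at 20 min, 247 left by 30 min, with a median position of 2.78 kb, and of the 492 that remained, 196 left by 40 min, with a median position of 6.59 kb. The first position was kept at all 4 times by 296 genes (11.2%). Among the genes of highest coverage in this set were NEMF, a ribosome quality control factor, with 1930 rpm, and TAF12, a TFIID subunit, with 1612 rpm. Their wave peaks were at -2 kb in all 4 libraries. In these genes a wave peak that never left the window edge stood beside high coverage over the window.

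Over the 3 intervals between neighbouring times the wave peak moved downstream in 57.1%, then 66.9%, then 67.4% of genes. It kept its position in 31.2%, 23.3% and 15.9% of genes, and most of these stood at the window start, namely 739 of 825, 505 of 617 and 301 of 419 genes. It moved upstream in 11.7%, 9.72% and 16.8%. The median step was 1.68 kb, then 1.38 kb, then 1.22 kb. Among the steps that went downstream the medians were 3.88, 2.11 and 2.37 kb. In the 1949 genes under 100 rpm the downstream shares were lower, at 37.4%, 52.0% and 52.4%, and the upstream shares higher, at 33.5%, 20.9% and 26.3%.

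**Figure D2:**
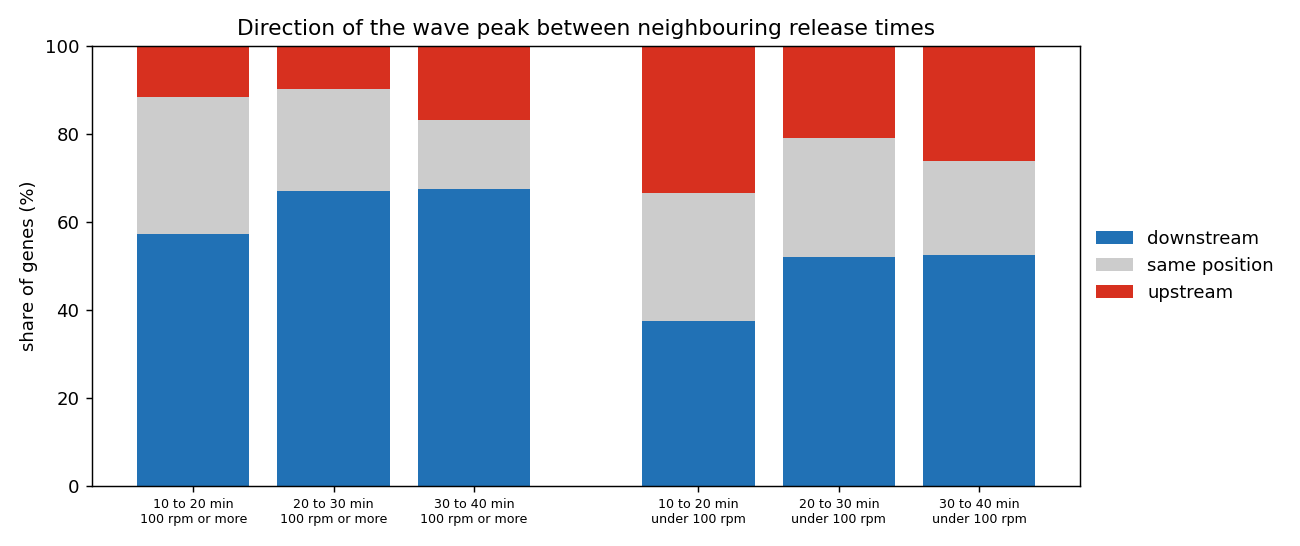
Share of genes (vertical axis, %) whose wave peak moved downstream (blue), kept its position (grey) or moved upstream (red) between neighbouring release times, for genes of 100 rpm or more (left) and under 100 rpm (right). Blue covers 57.1%, 66.9% and 67.4% on the left and 37.4%, 52.0% and 52.4% on the right.

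Steps of over 20 kb made up a small part of the downstream moves. The 3 intervals held 107, 90 and 219 of them, and of the last 189 set out from less than 20 kb and 61 landed beyond the gene end. Upstream steps of over 20 kb numbered 100, 38 and 50. From 10 to 20 min the large steps in the 2 directions were thus almost equal in number. Across genes the positions at 2 neighbouring times were closely related, with Pearson's r of 0.83, 0.89 and 0.83 and Spearman's rho of 0.79, 0.88 and 0.79 over 2643 genes. These are descriptions across genes, which share the libraries, the window and its edges.

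By the course over all 4 times, 1568 genes (59.3%) stayed under 20 kb without going back from the gene to its upstream side. The most frequent form, with 588 genes, lay upstream of the gene start at 10 min and 0 to 20 kb into the gene from 20 min on. Another 323 genes were 0 to 20 kb into the gene at all 4 times, 206 entered this stretch at 30 min and 148 at 40 min. The remaining 303 of the 1568 genes lay upstream of the gene start at all 4 times, so their wave peak never entered the gene. Of the genes at the first position at 10 min, 553 were 0 to 20 kb into the gene at 20 min and under 20 kb from then on. Those 553 moved by a median of 5.24 kb in the first 10 min, counted from the window edge, then by 2.15 kb and 1.59 kb. The 323 genes moved by 3.06, 1.70 and 1.23 kb. In both sets the median step was smaller at each later interval. Both were chosen to stay under 20 kb up to 40 min, which leaves out genes with a long last step. The decrease is therefore partly fixed by the choice. Over all members the median steps were 1.68, 1.38 and 1.22 kb, but the mean steps were 2.48, 3.11 and 5.67 kb. All 4 wave peaks lay 40 kb or more from the start in 509 genes (19.3%).

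ENAH, an actin regulator of the Ena/VASP family, and THOC2, the scaffold subunit of THO, entered late. Wave peaks of ENAH were at -2, -2, 3.34 and 5.19 kb, and those of THOC2 at -2, -2, 3.01 and 7.32 kb. ENAH spans 225486765 to 225653142 on chromosome 1 (minus strand, GRCh38), and THOC2 spans 123600561 to 123733056 on chromosome X (minus strand). USP24, a deubiquitinase, left the window edge by 20 min, with wave peaks at -2, 2.61, 6.63 and 9.25 kb. CDK12, a kinase of the Pol II C-terminal domain, did so too, at -2, 3.02, 4.98 and 5.55 kb, its steps shrinking from 5.02 to 1.96 and 0.57 kb. These 4 genes are named in the study, and none of them was past 10 kb at 40 min. The median of all members was then 9.42 kb. The 0 to 5 kb and 5 to 10 kb classes held 9.99% and 30.9% of members, and 11.9% were at the first position. OSBPL3, also named in the study, was at 10.9 kb. The 4 genes were at the first position at 10 min, where the 10 min filter of the study would leave them out.

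A gene was called orderly when its wave peak moved downstream at every step. This held for 1147 of the 2643 genes (43.4%, 95% interval 41.5% to 45.3%). Under 100 rpm it held for 291 of 1949 genes (14.9%, 13.4% to 16.6%). The advance, which is the distance between the 10 and 40 min wave peaks divided by 30 min, had a median of 0.281 kb/min over the 1147 genes, with quartiles of 0.213 and 0.376 kb/min. In 576 of these genes the 10 min wave peak was at the first window position, so that the advance was counted from the window edge, and their median was 0.330 kb/min. It was 0.233 kb/min in those starting at 0 to 20 kb and 0.197 kb/min in those starting at 20 kb or more. Over all 1147 genes the advance was under 0.5 kb/min in 84.7% and 1 kb/min or more in 103. A step of over 20 kb occurred in 115 orderly genes, and without these no gene exceeded 0.953 kb/min. The median steps of orderly genes were 3.72, 1.90 and 1.85 kb in order of time. The first step was the largest in 61.8% of them, although in the 576 genes it too was counted from the window edge. The third step was longer than the second in 49.8%, so the 2 later steps showed no common order.

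**Figure D3:**
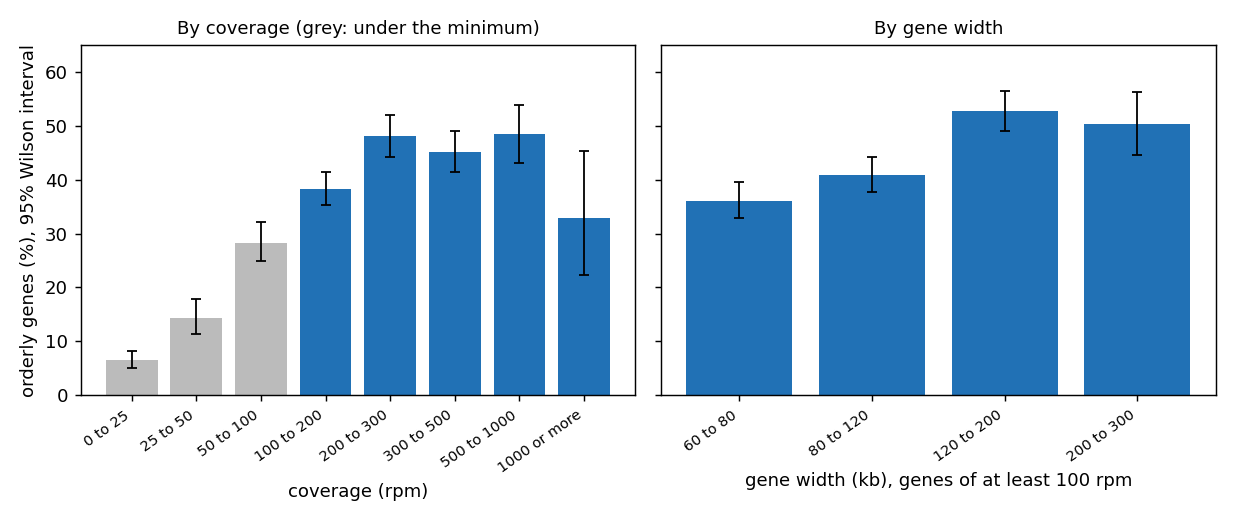
Share of orderly genes (vertical axis, %, bars with 95% Wilson intervals over genes) by coverage in rpm over all listed genes (left) and by gene width in kb over genes of 100 rpm or more (right). The share is 6.52% under 25 rpm, 48.1% at 200 to 300 rpm and 32.8% at 1000 rpm or more, and 36.1% in the narrowest and 52.7% in the 120 to 200 kb class.

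The orderly share differed between classes of coverage and width. It was 6.52% of genes under 25 rpm, 14.3% at 25 to 50 rpm and 28.3% at 50 to 100 rpm. Above the minimum it was 38.3% at 100 to 200 rpm and 48.1%, 45.2% and 48.5% in the classes from 200 to 1000 rpm, whose Wilson intervals overlapped. In the 61 genes of 1000 rpm or more it was 32.8% (22.3% to 45.3%), and in this class 44.3% of genes had the 40 min wave peak beyond the gene end. By width the share was 36.1% at 60 to 80 kb, 40.9% at 80 to 120 kb, 52.7% at 120 to 200 kb and 50.4% above. The median advance of the orderly genes changed little between the width classes, from 0.274 to 0.287 kb/min.

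For single genes the orderly courses were read where the 10 min wave peak was at the gene start or downstream of it and all 4 wave peaks lay inside the gene. These 449 genes, here called gene-body courses, had a median advance of 0.223 kb/min and median steps of 2.74, 1.70 and 1.71 kb. The first step was the largest in 53.2% of these courses. The slowest was SLC23A2, a vitamin C transporter (chromosome 20, 4852356 to 5010293, minus strand), whose wave peaks were at 13.4, 13.5, 13.9 and 14.3 kb. It advanced by 0.893 kb in 30 min, or 0.030 kb/min. SELENOP, the selenium carrier of plasma, went from 78.8 kb at 10 min to 80.3 and 80.4 kb at 30 and 40 min in a gene 87.5 kb wide. All the next slowest were within a narrow range of advance, from 0.055 to 0.061 kb/min. ANKMY1 moved from 7.35 to 8.99 kb, the glutamate transporter gene SLC1A3 from 14.5 to 16.1 kb, the glycosylation gene ALG13 from 16.9 to 18.6 kb and the autophagy gene RB1CC1 from 32.5 to 34.3 kb. None of the 6 slowest genes had its 10 min wave peak within 5 kb of the gene start. Counted from the start of the annotated canonical transcript, however, the 10 min wave peak of all 6 lay within 5 kb on either side. It was at 4.58 kb in SLC23A2, 3.27 in SELENOP, -3.87 in ANKMY1, 4.485 in SLC1A3, 1.55 in ALG13 and 1.045 kb in RB1CC1. ANKMY1 was still upstream of that start at 40 min, at -2.23 kb. Of the 429 gene-body courses whose gene width matched the annotation, 383 (89.3%) had the 10 min wave peak within 5 kb of the canonical start. This was therefore not particular to the slowest genes.

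The 6 fastest gene-body courses owed their advance to 1 step. CHCHD3, which encodes a subunit of the mitochondrial MICOS complex (chromosome 7, 132784870 to 133082090, minus strand), had wave peaks at 0.668, 5.86, 6.54 and 120 kb. Its last step was 113 kb and the 2 before it were 5.19 and 0.684 kb. The kinase gene CDC42BPB had wave peaks at 1.04, 5.16, 7.64 and 120 kb, and LRCH2 at 1.17, 5.64, 7.80 and 120 kb. In these genes the position at 40 min was the last of the window. SPATS2L moved from 8.42 to 115.6 kb in the last step, and VPS41, of the HOPS tethering complex, from 30.5 to 120 kb. At 30 min CHCHD3, CDC42BPB, LRCH2 and SPATS2L were between 6.54 and 8.42 kb, close to the member median of 6.61 kb. Their fast advance therefore rests on the 40 min library alone. Of the 449 genes, 36 had a step of over 20 kb, and without these the fastest was RAD18, a ubiquitin ligase of post-replication repair, with 0.937 kb/min. Its wave peaks were at 0.300, 5.47, 9.02 and 28.4 kb, and its last step of 19.4 kb was again the largest.

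Few courses were even. Of the 449 genes, 102 had steps that all lay within a factor of 2 of each other, and the median ratio of largest to smallest step was 3.44. Among genes that advanced at least 15 kb the most even were SPTBN1, FAT1, ENSG00000267173 and CUL3, with ratios from 3.15 to 4.15. FAT1, an atypical cadherin, had wave peaks at 1.55, 5.76, 8.94 and 19.9 kb. CUL3, a cullin scaffold of ubiquitin ligases, had them at 1.65, 6.77, 9.04 and 18.5 kb. In these 2 genes the last step was the longest, 10.9 kb and 9.44 kb. SPTBN1, a beta-spectrin, was already at 104.9 kb at 10 min and reached the last window position at 40 min.

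The transcription machinery gave several regular courses near the gene start. ELL, an elongation factor of the super elongation complex (chromosome 19, 18442663 to 18522116, minus strand), had wave peaks at 1.86, 6.60, 10.7 and 15.4 kb, and its steps of 4.74, 4.13 and 4.67 kb differed by a factor of only 1.15. Its advance of 0.451 kb/min was above the upper quartile of the gene-body courses, 0.292 kb/min. RTF1, of the Paf1 complex, went from 10.1 to 16.5 kb, and its last step was the longest. From its canonical start it went from 1.43 to 7.77 kb. MED27, a Mediator subunit, had wave peaks at 1.18, 7.58, 9.30 and 11.6 kb. MED15, another, had them at 15.1, 18.6, 19.5 and 23.9 kb. Its first wave peak thus lay farther from the gene start than the last of MED27. However, the canonical transcript of MED15 began at 11.7 kb, and that of MED27 at the gene start. From its canonical start the wave peaks of MED15 lay at 3.4, 6.9, 7.9 and 12.2 kb. MED27 and MED15 advanced by 0.348 and 0.294 kb/min. THOC3, a THO subunit, lay at 69.8, 72.0, 72.7 and 73.0 kb and advanced by 0.106 kb/min.

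The lists of related genes are described by counts beside those of all members, of which 43.4% were orderly. Of the Pol II elongation factors 13 of 17 were orderly (76.5%, 95% interval 52.7% to 90.4%), with a median advance of 0.281 kb/min and a median coverage of 510 rpm. Of the TREX, export and R-loop factors 7 of 11 were orderly, and 10 of 11 were at the first window position at 10 min, as were 55.2% of all members. Mediator had 5 of 6 orderly genes, and cleavage, polyadenylation and termination factors 3 of 6. Among splicing and RNA-binding proteins 14 of 22 were orderly, among chromatin regulators 29 of 60, among ubiquitin ligases and deubiquitinases 43 of 85 and among protein kinases 42 of 80. The median advance of the orderly genes in these 8 lists ran from 0.274 to 0.346 kb/min, around the 0.281 kb/min of all orderly genes. All 8 lists had a higher median coverage than the 247 rpm of all members, from 267 rpm in the kinases upwards, and the part of coverage in their orderly shares was not tested.

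Of the genes that the study classed as THOC5-dependent, 203 reached the minimum, and 117 of them were orderly (57.6%, 50.8% to 64.2%). Of the THOC5-independent genes 39 reached it and 19 were orderly (48.7%, 33.9% to 63.8%). The 2 intervals overlapped. The median advance of the orderly genes was 0.282 kb/min in the first and 0.223 kb/min in the second class, and the median coverage of the classes was 310 and 324 rpm, both above that of all members. Over gene-body courses the median was 0.226 kb/min in 59 and 0.191 kb/min in 10 genes, and the difference was not tested. The study reported a lower average elongation rate for its THOC5-dependent than its independent genes. It used a filtered set of highly expressed genes, so the comparisons differ in genes and measure. In the first class the slowest gene-body course was that of ATAD2, a chromatin-bound ATPase, at 22.3, 23.4, 24.2 and 25.2 kb, and the fastest was that of RAD18. In the second they were those of ZMIZ1, a transcriptional coregulator, at 4.90, 6.78, 7.51 and 8.62 kb, and CAPZB, of the actin capping protein, at 0.687, 5.80, 6.91 and 8.57 kb. At 40 min the slowest and the fastest of the THOC5-independent genes were thus at nearly the same distance from the gene start. Counted from its canonical start, ATAD2 had the 10 min wave peak at 2.35 kb.

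Other lists held both slow and fast gene-body courses. HUWE1, a HECT ubiquitin ligase, had wave peaks at 3.30, 5.39, 7.09 and 7.73 kb, and SRC, a tyrosine kinase, at 4.85, 6.71, 8.61 and 9.29 kb. Both advanced by 0.148 kb/min. SETD7, a lysine methyltransferase, stood at 52.9, 53.1 and 53.2 kb before a last step of 4.76 kb to 58.0 kb. U2SURP, a U2 snRNP-associated protein, advanced by 0.161 kb/min from 39.8 to 44.6 kb. The splicing kinase gene SRPK2, the fastest of its list, lay at 13.2, 15.8, 18.5 and 22.0 kb. It advanced by 0.294 kb/min, with steps within a factor of 1.38. MIB1, a ubiquitin ligase of Notch signalling, lay at 38.8, 41.0 and 42.7 kb before a last step of 21.6 kb. With that step it was the fastest of its list, at 0.852 kb/min. Counted from the canonical start, the 10 min wave peaks of SETD7, U2SURP, SRPK2 and MIB1 lay at 2.43, 2.74, 2.81 and 2.95 kb. OSBPL3, an oxysterol-binding protein gene named in the study, lay at 4.12, 7.34, 9.74 and 10.9 kb.

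The far wave peaks inside genes were set against the start of the canonical transcript of GENCODE 44, for the 2528 members whose width matched that annotation. This comparison was chosen after the positions had been seen. The canonical transcript began more than 20 kb inside the annotated gene in 308 of them (12.2%). Among the 309 genes with a 10 min wave peak inside the gene and 20 kb or more from its start, 168 were of this kind (54.4%), and in 149 of these the wave peak lay within 5 kb of the canonical start. Among the 389 genes with a 10 min wave peak at 0 to 20 kb, 9 were of this kind (2.31%). SELENOP illustrates it, as its canonical transcript began 75.5 kb into the gene, and its wave peaks lay 3.27, 4.55, 4.80 and 4.87 kb past that start. In THOC3 the canonical start was at 66.4 kb, and the wave peaks lay 3.46, 5.64, 6.36 and 6.64 kb past it. In RB1CC1, with a canonical start at 31.4 kb, they lay 1.05, 1.55, 1.75 and 2.89 kb past it.

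The wave peaks were also counted from the canonical start. Over all 308 genes with that start more than 20 kb inside, the quartiles were -32.5 and 3.98 kb at 10 min and -14.3 and 17.4 kb at 40 min, and 41.2% were orderly. At 10 min 45.1% of them had the wave peak within 20 kb past the canonical start and 26.0% at the first window position. The 149 genes had median wave peaks 2.63, 4.63, 6.34 and 8.63 kb past the canonical start, against 47.8 to 58.2 kb from the gene start. The comparison set was the 290 genes with the canonical start within 2 kb of the gene start and the 10 min wave peak at 0 to 20 kb. Its medians were 1.70, 5.28, 7.15 and 8.78 kb. Both sets were chosen by the 10 min position, and later positions follow it closely across genes, so the likeness of the medians was largely fixed by the choice and is a description only. Orderly courses made up 67.8% of the 149 and 74.1% of the 290 genes, with median advances of 0.200 and 0.241 kb/min. The canonical start is an annotation, and which start these cells used was not measured. Not all far courses were of this kind. Of the 485 width-matched genes with all 4 wave peaks 40 kb or more from the start, 330 lay beyond the gene end at all 4 times, 136 lay inside at all 4, and 84 of those 136 had the 10 min wave peak within 5 kb of such a canonical start.

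**Figure D4:**
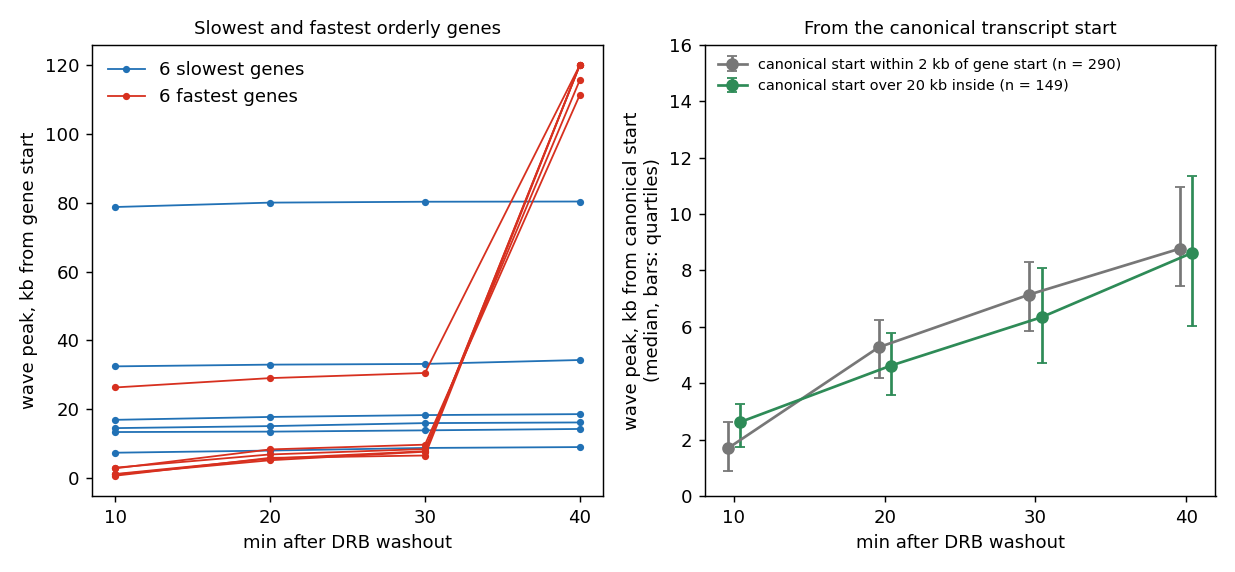
Left, wave peak in kb from the gene start against min after DRB washout for the 6 slowest (blue) and 6 fastest (red) gene-body courses, in which the red lines stay at or below 30.5 kb until 30 min and end close to the window end at 120 kb. Right, median wave peak in kb from the canonical transcript start, with bars for the quartiles, for 290 genes with that start within 2 kb of the gene start (grey) and 149 genes with it more than 20 kb inside (green), which reach 8.78 and 8.63 kb at 40 min.

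A wave peak past the 3′ end of its own gene was called in 410 genes (15.5%) at 10 min, then in 445, 475 and finally 495 genes (18.7%, 95% interval 17.3% to 20.3%). Because the window ends at 120 kb, only the 1705 genes narrower than that could show it. At 40 min it was 37.1% of the 60 to 80 kb and 21.9% of the 80 to 120 kb genes. The same genes were mostly concerned at all times, with 347 beyond the end at all 4 and 130 inside at 10 min and beyond at 40 min. Of these 130, 122 had moved by more than 60 kb in between. Genes with the 10 min wave peak beyond the end were orderly in 19.5% of cases, against 47.8% of those inside, and their median coverage was 306 rpm against 238 rpm.

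**Figure D5:**
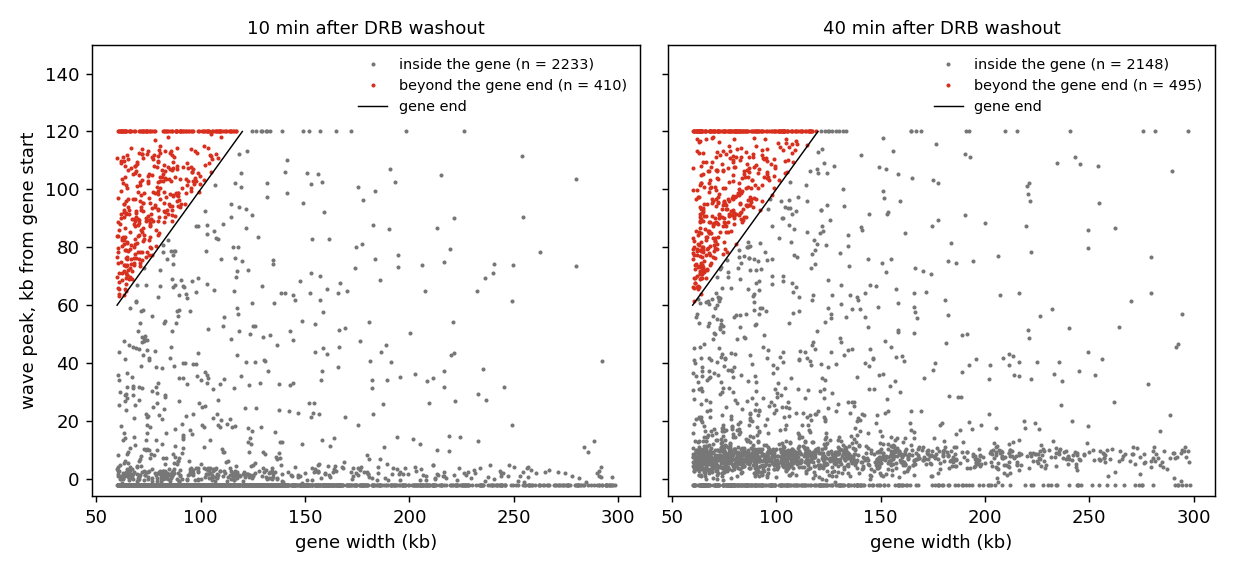
Wave peak in kb from the gene start (vertical axis) against gene width in kb (horizontal axis) for the 2643 genes at 10 min (left) and 40 min (right), with the line marking the gene end. Red points lie beyond the gene end (410 and 495 genes). The first window position at -2 kb held 55.2% of genes at 10 min and 11.9% at 40 min. The 5 to 10 kb class held 1.78% and 30.9% of genes.

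Beyond the gene end the wave peaks lay in neighbouring genes. Of the 390 width-matched cases at 10 min, 355 (91.0%) were inside another protein-coding gene, which covered on average 70.0% of the stretch from the gene end to the window end. In 316 cases (81.0%, 76.8% to 84.6%) the wave peak was in the first 10 kb of another protein-coding gene, on either strand, although such parts made up 33.8% of the stretch. It was 78.2%, 72.8% and 62.6% at the later times (58.1% to 66.8% for the last), while the share of the stretch was 31.9% at 40 min. The wave peak was inside another gene on the strand of the listed gene in 53.1% of cases at 10 min and in 49.5% at 40 min, so neighbours on both strands were concerned.

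ENSG00000205236, which has no symbol in the tables used, had the highest coverage of these genes, 9543 rpm, over a gene of 60.3 kb on chromosome 7 (102582523 to 102642869, minus strand). Its wave peak went backwards, from 79.9 to 77.5, 76.5 and 75.8 kb. SLC5A10, of the sodium/glucose transporter family, with 6861 rpm, was at 120 kb, the end of the window, in all 4 libraries, 47.7 kb past the gene end. GOLGA8B, of a golgin family with near-identical copies whose reads may be shared, lay at 73.8, 76.7, 79.4 and 79.0 kb. ARHGEF2, which encodes a RhoA exchange factor, was the orderly gene of highest coverage, 2196 rpm. It lay at 74.5, 76.0, 77.7 and 78.1 kb, beyond its end at 60.2 kb throughout. Other orderly genes of high coverage had wave peaks inside the gene and near its start. HNRNPC, an hnRNP protein gene with 2041 rpm, had wave peaks at 1.72, 4.41, 5.47 and 8.72 kb, and METTL9, a methyltransferase, at 4.00, 7.50, 8.45 and 10.6 kb. Both were thus close to the member median of 9.42 kb at 40 min.

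Some wave peaks stood still. In 378 genes (14.3%) all 4 lay within 1 kb of each other. Most of these, 296, were the genes called at the first window position at every time, and 76 stood 40 kb or more from the start. SPG7, a mitochondrial protease gene, stood at 72.0, 72.8, 72.9 and 72.1 kb, 5.05 kb past the gene end at 40 min. UBE2E1, a ubiquitin-conjugating enzyme gene, stood at 113.3, 113.9, 113.5 and 113.0 kb, 27.3 kb past it. Both moved back between 30 and 40 min.

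Within genes the wave peaks were also set against annotated exons. Of the 389 wave peaks at 0 to 20 kb at 10 min, 36.2% (31.6% to 41.1%) lay within 500 bp of an annotated exon, against 17.9% of the stretch itself. At 20, 30 and 40 min the shares were 18.6%, 14.8% and 14.5%, beside 16.9%, 17.2% and 17.7% of the stretch. The first exon lies at the start of this stretch, where the 10 min wave peaks were, so position and exon cannot be told apart. Wave peaks 20 kb or more into the gene were within 500 bp of an exon in 24.6% of cases at 10 min and 18.2% at 40 min, beside 20.1% and 21.5%.

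The advance of the gene-body courses was set against features of the gene. Over the 429 width-matched genes Spearman's rho with the advance was -0.05 for the GC content of the first 20 kb, 0.04 for the length of the first intron, 0.07 for the number of exons, 0.04 for gene width and 0.11 for coverage, and Pearson's r with the log2 advance was -0.05, 0.08, 0.09, 0.06 and 0.06. For the 10 min position rho was -0.24 and r was -0.09. That position enters the advance as its starting point, so the 2 share a measurement. All 6 are descriptions over genes measured in the same libraries.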

How the data were processed

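DRB/TTchem-seq libraries of shTHOC5 HEK293 cells were analysed from the table of wave peaks that the authors deposited, with 1 library per release time. The authors sequenced the labelled RNA in paired-end mode, took windows of 2 kb before and 120 kb after the start of non-overlapping protein-coding genes, normalized the coverage to sequencing depth and called the wave peaks with a published pipeline. The aligner is not given in the sources used here. The coverage column deposited by the authors is named for RPKM, but its values sum to 1000000 over the listed genes and were read as RPM. How it was combined over the 4 libraries is not described, and the reads per library and the precision they give are unknown. The deposited rates, filter and order marks were not used, and the control table is not used here. The release time of a column was taken from its name.

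From these positions the 2 kb upstream of the start were subtracted to give distances from the gene start. Genes of at least 100 rpm were kept, and steps, orderly genes and positions beyond the gene width were counted. Of the 4592 identifiers 4590 were found in GENCODE 44 on GRCh38, the build in the submitters' processing notes, and 4416 had the listed width. Only these gave coordinates, exons, GC content and neighbouring genes. The members and lists were chosen with earlier results of these data known.

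Genes named by rule were the 6 slowest and 6 fastest gene-body courses, the 4 most even among those advancing at least 15 kb, the 3 with the largest step, and the 4 orderly genes of highest coverage. They also included up to 3 gene-body courses by coverage from each of the elongation, termination, TREX and Mediator lists, and the slowest and fastest of every other list. The 3 genes of highest coverage were named among those beyond the gene end, always at the first position, or standing within 1 kb over 40 kb from the start. Genes that the study names were added where listed, and BICD1, ADAM22 and ZNF710 show the minimum. Of the genes given by this rule, 4 are not reported here.

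Medians and shares were computed in Python 3.11.15 (pandas 2.3.3, numpy 2.4.6 and scipy 1.17.1) and figures made in matplotlib 3.10.9. The functions were tested on simulated data. Alternatives changed the minimum coverage, the genes, the average and the definition of a move.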

Additional observations from a re-analysis of the deposited data

How the results depend on the processing

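No paired analysis was possible because each release time has 1 library, so the groups share a single replicate number. Of 93 alternatives, 20 stayed within the 95% interval over genes of the reported value and 73 left it, and 6 of the 93 were chosen after seeing the data. No median step changed sign, although that from 10 to 20 min was 0 with no minimum coverage, and the cause of the changes was not tested. At a minimum of 50 rpm the median step from 10 to 20 min was 1.22 kb, 54.8% of genes moved downstream in it and 40.6% were orderly. At 200 rpm the median wave peaks from 20 min on were 4.61, 7.18 and 10.0 kb, the first 2 median steps 2.09 and 1.47 kb, the downstream shares 60.7%, 69.4% and 69.2%, the orderly share 46.5%, their advance 0.289 kb/min and the share beyond the gene end 21.1%. With no minimum the median wave peaks at 10, 30 and 40 min were 0.579, 6.96 and 10.8 kb, the median steps 0, 1.08 and 1.03 kb, the downstream shares 48.7%, 60.6% and 61.0% and the orderly share 31.3%.

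Without genes that had any wave peak at the first window position the median wave peaks were 46.8, 39.0, 40.4 and 50.6 kb, so the medians near the start depend on those genes and the median at 20 min lay upstream of that at 10 min without them. The later median steps were then 1.17 and 0.813 kb, the downstream shares 68.1%, 73.4% and 65.3%, the orderly share 49.5%, their advance 0.224 kb/min and the share beyond the gene end 33.5%. With all wave peaks inside the gene the medians from 20 min on were 3.01, 5.47 and 7.91 kb, the steps 2.09, 1.64 and 1.58 kb, the downstream shares 59.7%, 72.7% and 74.1% and the orderly share 49.9%. As means over genes the wave peaks were at 22.2, 24.7, 27.8 and 33.5 kb, the steps 2.48, 3.11 and 5.67 kb and the advance 0.488 kb/min, so the mean steps lengthened with time where the medians shortened. In orderly genes at least 2 kb past the window start at 10 min the medians were 10.2, 13.4, 15.3 and 22.5 kb, the steps 2.65, 1.66 and 1.68 kb and the advance 0.218 kb/min.

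When only moves of at least 1 kb counted, the downstream shares were 53.8%, 56.5% and 53.6%, the orderly share 27.7% and their advance 0.316 kb/min. When standing still was allowed, 74.0% were orderly. Counted from the canonical transcript start, the medians from 20 min on were 3.50, 5.70 and 8.28 kb. Without genes that had a downstream step over 20 kb, 46.1% were orderly, with an advance of 0.268 kb/min. Depth per library is unknown, so its limit on these values cannot be given.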
